A study of Drosophila melanogaster with 12 samples.

Results

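The 32 genes described here encode structural and regulatory proteins of the fly sarcomere, the contractile unit of striated muscle. They were taken by FlyBase symbol or synonym from a table of 17707 genes measured in whole Drosophila melanogaster. All 32 were found, 31 by their current symbol and Unc-89, the fly obscurin, by a synonym, and all 32 had enough counts to be tested.

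RNA was sequenced from whole newly emerged flies kept either on normal medium (control, CK) or on the same medium with added erythritol, a sugar alcohol that is toxic to several insects (T). Flies were collected on day 3 (72 h) and day 4 (96 h) of feeding, which gives the groups CK72h, CK96h, T72h and T96h with 3 libraries each and 12 in all. Each library came from pooled flies, so a value is an average over animals and over all tissues. The strain and the sex of the flies were not given in the sources used here, and the labels set the 4 groups apart only by medium and day. The methods call the replicates biological, whereas the labels do not say whether they came from separate flasks, so p-values measure the spread between these libraries.

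In a sarcomere, thick filaments of myosin pull on thin filaments of actin that are anchored in the Z-disc. Calcium binding to troponin C, a subunit of the troponin complex, moves tropomyosin on the thin filament and lets myosin bind. Drosophila builds different muscles from different members of the same families: the indirect flight muscles use their own actin (Act88F), a stretch-responsive troponin C (TpnC4) and the thick filament protein flightin, while tubular muscles such as those of legs and abdomen use other actins and troponin C genes.

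Libraries held 19855575 to 23327826 counts. Replicates differed by more than counting error. EdgeR's shared estimate of the coefficient of variation on top of that error was 4.06% for the 13179 genes tested. Within a group, T72h replicates 1 and 3 differed most. Transcripts of the mitochondrial genome took 7.29% to 16.5% of the counts, with the highest share in T72h replicate 3. Levels below are CPM, read counts set to a common library size with TMM factors, which assume that most genes do not change. Log2 fold changes and adjusted p-values come from edgeR's quasi-likelihood test with Benjamini-Hochberg adjustment over the 13179 genes. A gene passed at an adjusted p under 0.05, and it was called when it also changed by at least 1.5 on the log2 scale, the criteria of the study.

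Several muscle transcripts were abundant, and the marker that is most specific to indirect flight muscle was nearly absent. Per kilobase of exon, Mlc2, the regulatory light chain of myosin, reached 399.7 ± 5.58 CPM per kb in CK72h (SD, n = 3) and Act57B, a sarcomeric actin, reached 437 ± 5.17. Fln (flightin) had the lowest level of the 32 genes in all 4 groups, at 0.62 ± 0.25 CPM per kb in CK72h. It collected 196 counts over the 12 libraries, and 61.6% of its exon bases lie opposite an antisense RNA gene, so that reads of both genes cannot be told apart where counting ignored strand. Act88F and TpnC4, the other genes tied to flight muscle, ranked 21 and 23 among the 32 per kilobase in CK72h. Other members lay lower per kilobase: Lasp exceeded 20.4% to 32.2% of the genes with a length, by group, sls 24.1% to 44.4% and Msp300 26% to 38.6%. The length used is that of all annotated exons of a gene. It is 59 kb for sls (13 transcripts) and 69.8 kb for Msp300 (11 transcripts), so their levels per kilobase depend on it. Not divided by length, sls was at 337.2 CPM and Msp300 at 413.6 CPM in CK72h. In whole flies, fewer muscle cells and less RNA per muscle cell cannot be told apart.

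**Figure D1:**
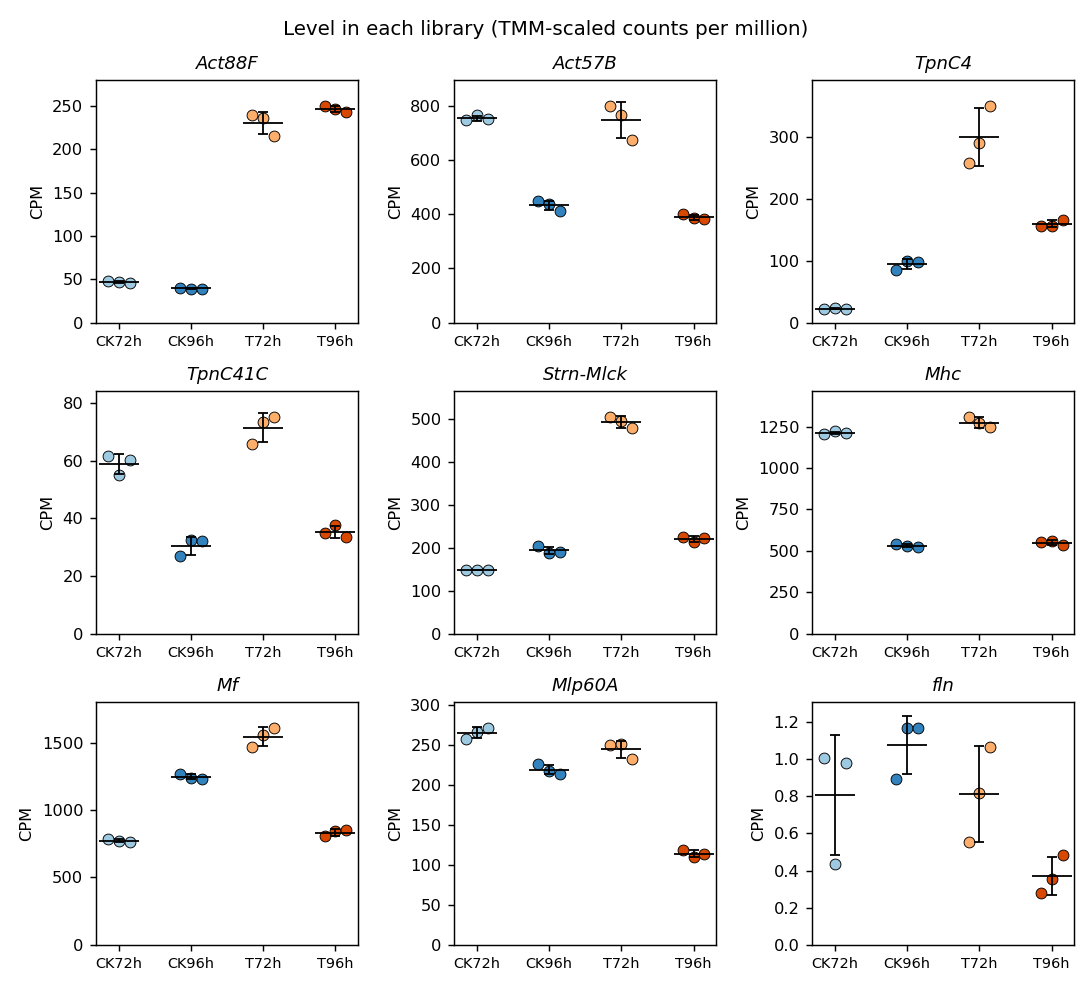
Level in each of the 12 libraries, in CPM, of Act88F, Act57B, TpnC4, TpnC41C, Strn-Mlck, Mhc, Mf, Mlp60A and fln. Each gene has its own panel with a linear axis, and the 4 groups are marked by colour. Replicates lie close together for most of these genes. The lowest level is that of fln, at 0.28 to 1.17 CPM, and Act88F and TpnC4 show the widest separation between groups.

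At 72 h most of the sarcomere genes were higher in erythritol-fed flies. Of the 32 genes, 26 were higher, where 37.3% of all genes tested were higher, and 2 were lower, where 42.1% of all genes were lower. The median log2 change of the 32 was 0.64, against -0.05 over all genes tested. The genes called at 1.5 were Act88F, TpnC4 and Strn-Mlck, all higher, where 3.98% of all genes were called higher. The edgeR test called no gene of the 32 lower (8.92% of all genes were), DESeq2 gave the same count, and 2 were lower at an unadjusted p under 0.05. Levels of the 3 T72h libraries lay entirely above those of the 3 CK72h libraries for 27 genes, where 37.2% of all genes did so, and entirely below for 2, where 42.4% did. Summed over the 32 genes, the level rose from 10200 to 10290 CPM in the CK72h libraries to 15860 to 16060 CPM in the T72h libraries.

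At 96 h the excess was smaller. Of the 32 genes, 21 were higher (38.3% of all genes) and 5 were lower (41.2% of all genes), with a median log2 change of 0.29 against -0.02 over all genes. Act88F was called higher (3.97% of all genes were) and fln lower (7.15% of all genes were). Libraries of both diets did not overlap for 21 genes that were higher in T96h, where 39.1% of all genes did so, and for the 5 lower ones (41.7% of all genes). The summed level lay between 7343 and 7414 CPM in CK96h and between 8492 and 8548 CPM in T96h. In total 20 genes were higher at both times, among them 3 of the 4 actins, and TpnC25D and Mlp60A were lower at both. The share of all genes that passed in the same direction at both times was not counted.

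**Figure D2:**
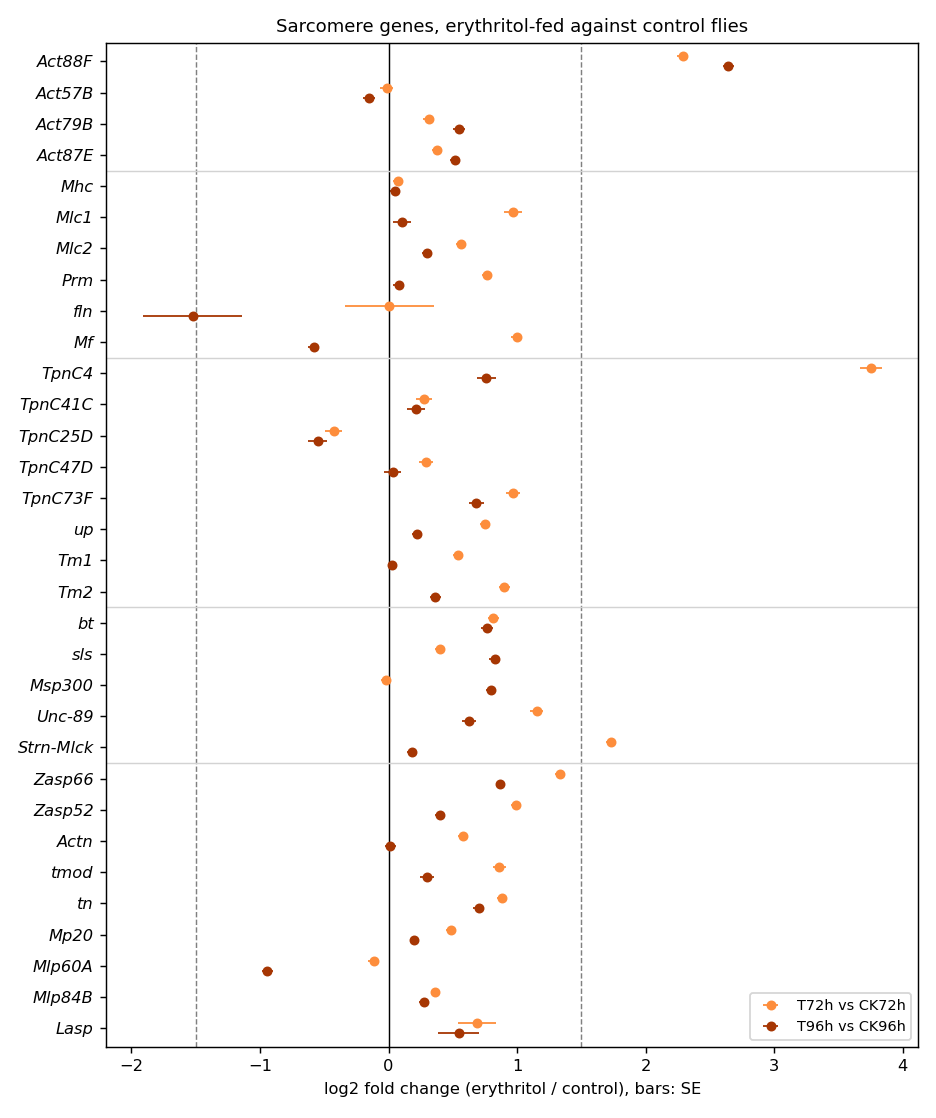
Log2 fold change of erythritol-fed against control flies for each of the 32 genes at 72 h and at 96 h, with bars for the standard error and dashed lines at 1.5 in both directions. TpnC4 (3.75), Act88F (2.29) and Strn-Mlck (1.73) lie beyond the line at 72 h, and Act88F (2.65) and fln (-1.52) lie beyond it at 96 h.

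Among the actins, the flight muscle form rose by far the most. Act88F, on chromosome arm 3R from 15439969 to 15442177 of the dm6 assembly, encodes the actin of the indirect flight muscles. Its level was 48.3, 47.3 and 45.8 CPM in CK72h and 239.5, 236.6 and 215.6 CPM in T72h. At 96 h it was 40.4, 38.7 and 39.1 CPM in control flies and 250.4, 246.3 and 242.8 CPM in erythritol-fed flies. Every erythritol library thus lay above every control library of its time. The gene was 4.89-fold higher at 72 h (log2 2.29, SE 0.04, adjusted p = 2.27e-24 by edgeR) and 6.26-fold higher at 96 h (log2 2.65, SE 0.04, adjusted p = 2.26e-25 by edgeR), and the effect at 96 h exceeded that at 72 h by 0.36 (adjusted p = 1.31e-05 by edgeR).

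The other sarcomeric actins changed less by diet than Act88F. Act79B, used in tubular muscles, was at 386.8 to 397.5 CPM in CK72h and 449.6 to 511.8 CPM in T72h, and at 116.4 to 124.2 CPM in CK96h and 170.8 to 179.7 CPM in T96h. Its log2 change was 0.31 at 72 h and 0.55 at 96 h. With library totals as the scale Act79B did not pass at 72 h (0.06). Its groups did not overlap at either time. Act87E changed by 0.37 and 0.52, also without overlap. Act57B was at 746.7, 763.5 and 750.1 CPM in CK72h and at 799.2, 765.7 and 672.2 CPM in T72h, so that the groups overlapped with T72h replicate 3 lowest and T72h replicate 1 highest. It did not pass at 72 h (log2 -0.01, adjusted p = 0.786 by edgeR) and was slightly lower at 96 h (log2 -0.15, adjusted p = 0.00709 by edgeR), a pass that was lost with upper-quartile factors, with library totals and without T72h replicate 3 (-0.0424).

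Shares within a library do not depend on how libraries are scaled. With erythritol the share of Act88F rose and that of Act57B fell, while Act79B and Act87E moved little. Of the counts of the 4 sarcomeric actins, Act88F took 3.16% ± 0.09 in CK72h and 12.5% ± 0.17 in T72h (SD, n = 3). At 96 h its share was 5.33% ± 0.12 in control and 24.1% ± 0.12 in erythritol-fed flies. Act57B took 50.5% ± 0.14 and 40.2% ± 0.85 at 72 h, and 58.4% ± 0.74 and 38% ± 0.19 at 96 h. Ranges of the libraries did not overlap between diets for either gene at either time. For Act79B the shares were 26.4% ± 0.35 and 26.4% ± 0.26 at 72 h, and 16.1% ± 0.32 and 17% ± 0.2 at 96 h. Act87E kept between 19.6% and 21.9% in all 12 libraries. The coding parts of the actin genes are nearly identical, and the sources used here do not say how reads shared by several of them were counted, which leaves the split among actins uncertain. These shares are described without a test.

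TpnC4 showed the largest change of the 32 genes at 72 h. This gene, on arm 2R, encodes the calcium sensor through which stretch activates flight muscle. Its level was 21.5, 23.2 and 21.9 CPM in CK72h and 258, 289.8 and 349.7 CPM in T72h. At 96 h it was 84.6, 99.4 and 98.2 CPM in CK96h and 156.2, 156 and 166.2 CPM in T96h. The groups stood apart at both times, T72h replicate 3 was the highest library, and the control itself was higher at 96 h than at 72 h. TpnC4 was 13.5-fold higher at 72 h (log2 3.75, SE 0.09, adjusted p = 1.21e-22 by edgeR), a larger rise than that of 99.7% of the genes tested, and 1.69-fold higher at 96 h (log2 0.76, SE 0.07, adjusted p = 9.19e-10 by edgeR). The effects differed by -2.99 (adjusted p = 1.16e-17 by edgeR).

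The remaining troponin C genes changed by less than TpnC4 at 72 h, and TpnC25D went the other way. TpnC25D, a minor form, was lower with erythritol: it was at 30.9, 33.3 and 33.9 CPM in CK72h against 22.9, 25.3 and 24.8 CPM in T72h, and at 23.6 to 25.8 CPM in CK96h against 15.3 to 18.6 CPM in T96h. Its libraries did not overlap at either time (log2 -0.43 and -0.55). TpnC73F, best known from larval muscles, was higher at both times, by 0.97 and 0.68. TpnC41C, the main form of the jump muscle, was higher by 0.28 and 0.21, and at 96 h it did not pass without CK96h replicate 1 (0.13) or T96h replicate 2 (0.17). TpnC47D passed only at 72 h (log2 0.29 at 72 h and 0.03 at 96 h). With library totals as the scale, neither TpnC41C (0.02) nor TpnC47D (0.04) passed at 72 h. In the counts of the 5 troponin C genes, the share of TpnC4 was 12.2% ± 0.54 in CK72h, 58.5% ± 2.9 in T72h, 47.4% ± 1 in CK96h and 57.1% ± 0.4 in T96h (SD, n = 3). The share of TpnC41C was highest in CK72h, at 32.3% ± 1.8, and lay between 11.6% and 15.8% in the other 9 libraries.

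**Figure D3:**
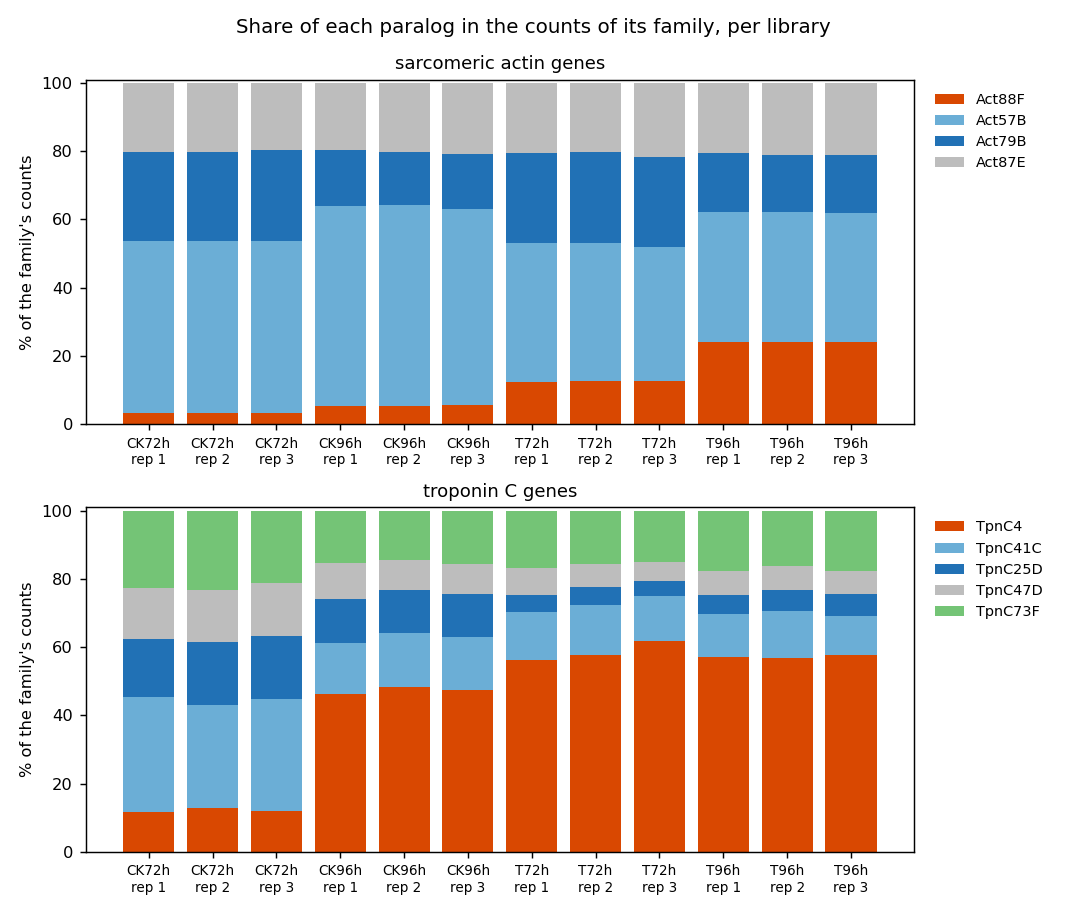
Share of each sarcomeric actin gene and of each troponin C gene in the counts of its family, in percent, as a stacked bar for each of the 12 libraries. Act88F widens from 3.16% of actin counts in CK72h to 12.5% in T72h and 24.1% in T96h, and TpnC4 from 12.2% of troponin C counts in CK72h to 58.5% in T72h.

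Troponin T and the tropomyosins, which carry the troponin complex along actin, were higher at 72 h. The gene up (upheld), which encodes troponin T, was at 577.4 to 590 CPM in CK72h and 954.6 to 1034 CPM in T72h, and Tm2 at 319.7 to 336.1 CPM and 584.6 to 640.2 CPM. Neither overlapped between diets, and their log2 changes were 0.75 and 0.90 at 72 h and 0.22 and 0.36 at 96 h. Tm1, which also encodes cytoplasmic tropomyosins, rose by 0.54 at 72 h, while at 96 h it was at 412.1 to 428.7 CPM in control and 421.6 to 432.8 CPM in erythritol-fed flies, with overlap (log2 0.03, adjusted p = 0.454 by edgeR).

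The thick filament was uneven. Mhc, the single gene for muscle myosin heavy chain, was at 1206, 1221 and 1212 CPM in CK72h and 1309, 1270 and 1246 CPM in T72h. At 96 h it was at 540.4, 527.7 and 525.7 CPM in control and 553.5, 560.4 and 532.6 CPM in erythritol-fed flies. The libraries stood apart at 72 h and overlapped at 96 h, and Mhc passed at neither time (log2 0.07 with adjusted p = 0.0872, and 0.05 with adjusted p = 0.265, by edgeR). Other settings went both ways at 72 h. Mhc passed as higher with RLE size factors (0.10), with DESeq2 (0.11) and with the 2 groups alone (0.11). It also passed as higher without CK96h replicate 3 (0.08) or T72h replicate 3 (0.14). With upper-quartile factors its value at 72 h was -0.06, and with library totals it was -0.18 (adjusted p = 0.00165 by edgeR). At 96 h it passed as higher with upper-quartile factors (0.12) and without T72h replicate 3 (0.16). The light chains were higher at 72 h, Mlc1 (essential light chain) by 0.97 and Mlc2 by 0.56, and at 96 h Mlc2 was higher by 0.30 and Mlc1 did not pass (0.11, adjusted p = 0.168 by edgeR). Mlc1 varied within T72h, at 555.9, 588.7 and 733.2 CPM with replicate 3 highest.

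Myofilin had opposite changes at the 2 times. Mf encodes a protein of the thick filament core. Its level was 786.6, 773.8 and 762.3 CPM in CK72h and 1470, 1560 and 1610 CPM in T72h, and then 1271, 1240 and 1234 CPM in CK96h and 805.2, 844.8 and 852 CPM in T96h. The groups stood apart at both times, with erythritol-fed flies higher at 72 h and lower at 96 h. The log2 change was 0.998 at 72 h (SE 0.04, adjusted p = 5.42e-17 by edgeR) and -0.58 at 96 h (SE 0.04, adjusted p = 2.69e-12 by edgeR), and the difference between both was -1.58 (adjusted p = 9.64e-18 by edgeR). Mf was the only one of the 32 genes that passed in opposite directions. Prm, which encodes paramyosin and miniparamyosin of the filament core, was higher by 0.76 at 72 h and did not pass at 96 h (0.08, adjusted p = 0.0737 by edgeR).

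Flightin rested on few reads. Fln was at 1, 0.43 and 0.98 CPM in CK72h and 0.55, 0.82 and 1.06 CPM in T72h, with overlap. At 96 h it was at 0.90, 1.17 and 1.17 CPM in control and 0.28, 0.35 and 0.48 CPM in erythritol-fed flies, without overlap. The value at 96 h was 2.87-fold lower (log2 -1.52, SE 0.38, adjusted p = 0.000911 by edgeR), just past 1.5. Upper-quartile factors gave -1.45 and library totals -1.47. It also fell short of 1.5 without CK96h replicate 2 (-1.47) or 3 (-1.46), without T96h replicate 1 (-1.35) or 2 (-1.49), and without T72h replicate 3 (-1.42).

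The giant elastic and M-line proteins included the third gene called at 72 h. Strn-Mlck encodes large titin-like proteins, some of them with a kinase domain. It was at 148.9, 148.4 and 148.6 CPM in CK72h and 504.2, 495.2 and 477.8 CPM in T72h, and at 203.4, 188.1 and 191.1 CPM in CK96h and 225.9, 213.4 and 221.8 CPM in T96h. No library overlapped between diets. The gene was 3.31-fold higher at 72 h (log2 1.73, SE 0.04, adjusted p = 8.27e-23 by edgeR) and 1.14-fold higher at 96 h (log2 0.18, adjusted p = 0.000128 by edgeR), a difference of -1.55 (adjusted p = 2.34e-18 by edgeR). With library totals as the scale its value at 72 h was 1.47, short of 1.5.

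Unc-89, which organises the M-line, rose from 131.5 to 141.2 CPM in CK72h to 277.5 to 317.1 CPM in T72h (log2 1.15), and was higher by 0.63 at 96 h. The genes of projectin and Sallimus, the titin-like proteins that tether thick filaments to the Z-disc, were also higher at both times: bt (bent) by 0.82 and 0.77, and sls by 0.40 and 0.83. For sls the effect was larger at 96 h than at 72 h, by 0.42 (adjusted p = 4.52e-07 by edgeR). Msp300, a nesprin that anchors nuclei and mitochondria in muscle, was at 421.5, 410.9 and 408.4 CPM in CK72h and 409.9, 412.9 and 400.9 CPM in T72h, with overlap, and at 193.2 to 210 CPM in CK96h against 334.5 to 351.5 CPM in T96h, without overlap. It passed only at 96 h (log2 0.80), and its effects differed by 0.82 (adjusted p = 1.23e-12 by edgeR). These transcripts are long, and exon length did not order the changes: over the 32 genes, Spearman's rho between exon length and log2 change was 0.124 at 72 h and 0.196 at 96 h, as a description.

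Z-disc genes were mostly higher, with Mlp60A as the exception. Zasp66 encodes a Z-disc protein of the Alp/Enigma family and lies on arm 3L from 8624371 to 8638813. It was at 314, 306.9 and 300.2 CPM in CK72h and 769.4, 798.2 and 756.1 CPM in T72h, and at 252.1 to 258.7 CPM in CK96h against 454.8 to 475.2 CPM in T96h. Groups did not overlap, and it was 2.52-fold higher at 72 h (log2 1.33, SE 0.04, adjusted p = 1.06e-20 by edgeR) and 1.83-fold higher at 96 h (log2 0.87). Its relative Zasp52 was higher by 0.99 and 0.40. The gene tmod, tropomodulin that caps thin filament ends, was higher by 0.86 and 0.30, and tn (thin, a TRIM32 relative that stabilises the attachment to the Z-disc) by 0.88 and 0.70.

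Actn, the alpha-actinin that cross-links actin in the Z-disc, was higher by 0.58 at 72 h and did not pass at 96 h (0.01, adjusted p = 0.781 by edgeR), where its libraries overlapped. Part of its exons overlap 3 neighbouring genes, 15.7% of the bases being shared with east on the opposite strand. Mp20, a calponin-like protein of tubular muscles, was higher by 0.48 and 0.20, and Mlp84B, a muscle LIM protein, by 0.36 and 0.28. Lasp, a LIM and SH3 protein on thin filaments, was higher by 0.69 and 0.55, with a wide spread in T72h, at 12.3, 16.7 and 24.1 CPM with replicate 3 highest. Without that replicate its value at 72 h was 0.46. The annotation places a second gene, listed at 0 counts, over all of its exons.

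Mlp60A, the other muscle LIM protein, fell. Its level was 257.9, 266.6 and 271.5 CPM in CK72h and 250.1, 251.7 and 232.3 CPM in T72h. At 96 h it was 226.1, 217.9 and 214.4 CPM in CK96h and 118.8, 109.5 and 114.3 CPM in T96h. Erythritol-fed libraries lay below the controls at both times, narrowly at 72 h. The log2 change was -0.12 at 72 h (adjusted p = 0.00978 by edgeR) and -0.94 at 96 h (SE 0.04, adjusted p = 1.25e-16 by edgeR). The pass at 72 h was lost with RLE size factors, with DESeq2, with the 2 groups alone and without CK72h replicate 3 or T72h replicate 3. The effects on Mlp60A differed by -0.83 (adjusted p = 2.32e-12 by edgeR).

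The test of the difference between times summarised these shifts. The effect of erythritol was smaller or more negative at 96 h for 20 genes, where 47.8% of all genes passed lower, and larger for 5, namely Act88F, Act79B, Act87E, sls and Msp300, where 31.1% of all genes passed higher. The median difference was -0.29, against -0.22 over all genes, so that the typical gene of the list moved about as the typical gene of the table. Scaling mattered for this contrast: higher genes made up 20% of those that passed, 34.8% under upper-quartile scaling and 39.1% with library totals. The lower genes numbered 15 under upper-quartile scaling and 14 with library totals. With library totals the values of Mlc2, TpnC47D, TpnC73F, tn and Mp20, which had passed as lower, turned positive. The pass of Act87E as larger at 96 h was lost with RLE size factors (0.11) and with DESeq2 (0.10). The largest shift of the median over all genes under another scaling was 0.314, and the most negative differences were those of TpnC4, Mf, Strn-Mlck and fln.

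Within control flies, sarcomere transcripts declined between 72 h and 96 h. Among the 32 genes, 27 were lower (35.1% of all genes) and 3 higher (47.2% of all genes), with a median of -0.45 against 0.12 over all genes. Act79B was called lower (4.07% of all genes), falling from 386.8 to 397.5 CPM to 116.4 to 124.2 CPM (log2 -1.73, SE 0.05, adjusted p = 2.09e-20 by edgeR), and TpnC4 was called higher (1.56% of all genes; log2 2.08, adjusted p = 1.47e-16 by edgeR). Mhc was 2.28-fold lower, sls 2.31-fold, bt 2.08-fold and Msp300 2.08-fold. Mf (0.69) and Strn-Mlck (0.39) were the other genes that rose. The CK96h libraries lay entirely below those of CK72h for 28 genes (35.7% of all genes) and entirely above for 3 (47.6% of all genes).

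In erythritol-fed flies the decline was more uniform. Of the 32 genes, 31 were lower at 96 h (26.8% of all genes) and 1, Act88F, was higher (26.3% of all genes), with a median of -0.92 against -0.01 over all genes. Libraries did not overlap for 30 of the lower genes (28.6% of all genes). In edgeR none of the 32 was called at 1.5, where 0.653% of all genes were called higher and 0.744% lower, whereas all 32 had an unadjusted p under 0.05 and DESeq2 called 1, Act79B. The falls included Act79B (log2 -1.49), Mhc (-1.22), Unc-89 (-1.20), Tm2 (-1.19), up (-1.18) and Strn-Mlck (-1.16). Lasp (-0.42) did not pass without T72h replicate 3 (-0.18) or T96h replicate 1 (-0.34). Fln (-1.11) did not pass without T72h replicate 2 (-1.11) or 3 (-0.92) or T96h replicate 1 (-0.94) or 2 (-1.08). The rise of Act88F was 0.10 (adjusted p = 0.0369 by edgeR) and was lost with RLE size factors (0.02), with DESeq2 (0.01) and with the 2 groups alone (0.10), and also without CK72h replicate 2, CK96h replicate 2, T72h replicate 3 (0.01) or T96h replicate 1 or 2. In all, 26 genes were lower over time on both media, and TpnC4, Mf and Strn-Mlck rose in control and fell in erythritol-fed flies. The shares of all genes with these joint patterns were not counted. Each group at 72 h and at 96 h enters both a diet and a time comparison, so these comparisons are not independent.

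**Figure D4:**
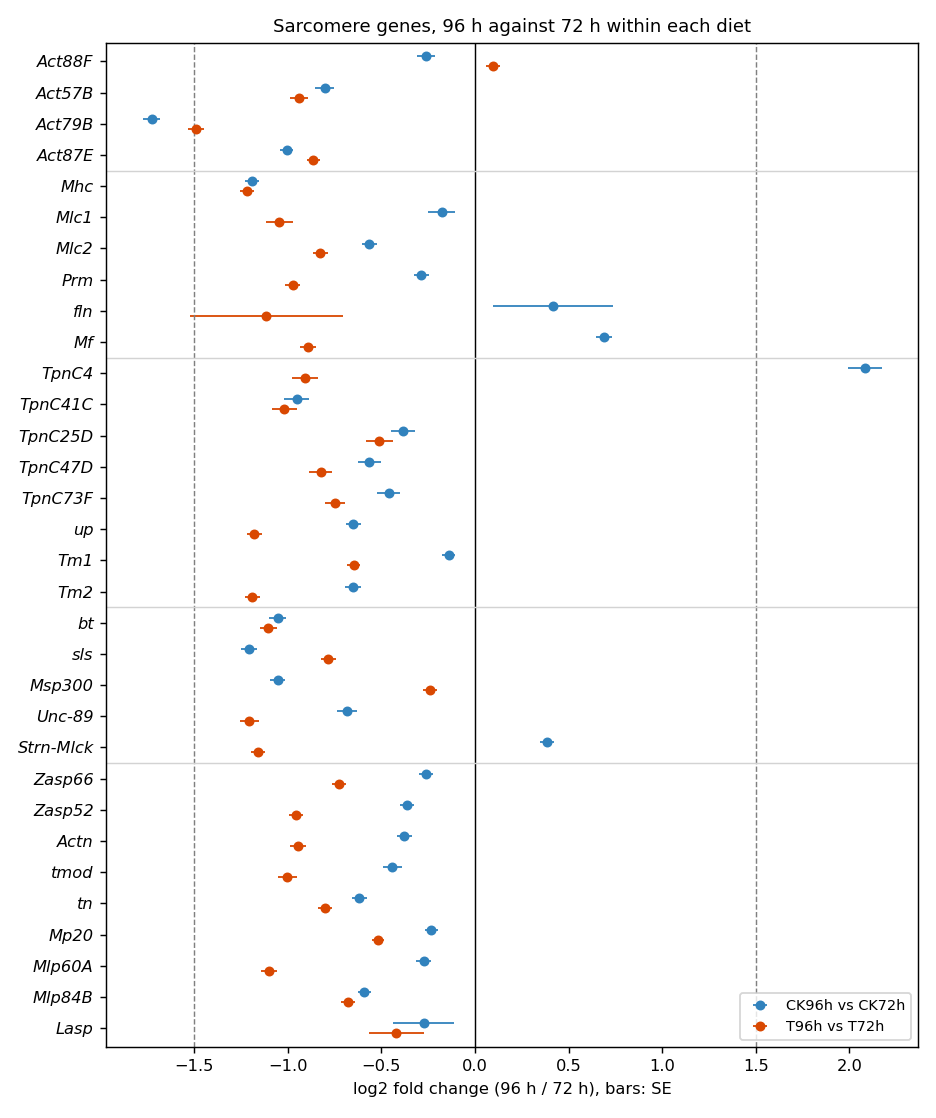
Log2 fold change from 72 h to 96 h for each of the 32 genes in control flies and in erythritol-fed flies, with bars for the standard error and dashed lines at 1.5 in both directions. Most genes lie left of 0 in both diets. TpnC4 (2.08 in control, -0.91 in erythritol-fed flies), Mf (0.69 and -0.89) and Strn-Mlck (0.39 and -1.16) lie on opposite sides.

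Composition of the sarcomere transcripts, set against myosin heavy chain, also differed by group. For every 100 counts of Mhc, Act88F gave 3.88 ± 0.12 in CK72h, 18.1 ± 0.69 in T72h, 7.42 ± 0.07 in CK96h and 44.9 ± 0.86 in T96h (SD, n = 3). Mf gave 63.8 ± 1.22, 121.4 ± 8.53, 235 ± 0.18 and 152.1 ± 7.33 in the same order. TpnC47D differed less, without overlap at 72 h and with overlap at 96 h, at 2.29 ± 0.03 and 2.66 ± 0.12 at 72 h and at 3.54 ± 0.07 and 3.50 ± 0.17 at 96 h. These ratios are within a library and were not tested.

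Genes that work beside the sarcomere, from 6 lists of which 51 of 56 genes were in the table, were mostly higher at 72 h too, where 37.3% of all genes were higher and 42.1% lower. Of 8 further thin filament and Z-disc genes, all 8 were higher, from Zasp67 (log2 3.20), another Zasp gene with a mean level of 1.39 ± 0.28 CPM in CK72h that reached 12.9 ± 1.07 CPM in T72h, to cpb (0.28), a capping protein subunit. Of 10 muscle attachment genes 9 were higher, with stck (0.76), the fly PINCH, at one end and Dg (dystroglycan, -0.43), the gene that fell, at the other. All 6 genes of cytoplasmic actin and non-muscle myosin were higher too, from sqh (0.99), the non-muscle regulatory light chain, to Act42A (0.12), so the rise at 72 h was not limited to muscle forms.

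Of 6 genes of flight muscle energy supply 5 were higher at 72 h. Ald1 (aldolase) went from 960.1 ± 12.5 CPM in CK72h to 3876 ± 126 CPM in T72h (log2 2.01, adjusted p = 4.93e-23 by edgeR). Argk1 (arginine kinase), the phosphagen enzyme, gave -0.04 (adjusted p = 0.442 by edgeR). Of 12 transcription, splicing and chaperone genes 9 were higher, led by vg (vestigial, log2 2.73), a selector of wing and flight muscle fate, and 2 were lower, with bru1 (-0.70), a flight muscle splicing factor, lowest. Of 7 genes of excitation-contraction coupling 4 were higher, led by jp (junctophilin, 0.92), and 2 were lower, with stj (-0.64), a calcium channel subunit, lowest.

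At 96 h the lists were mixed, against 38.3% of all genes higher and 41.2% lower, and the counts of the transcription and energy lists were near these shares. The further thin filament and Z-disc genes held 5 higher and 3 that did not pass, led by sals (1.33), which elongates thin filaments. Muscle attachment held 7 higher and 3 lower, from rhea (talin, 0.58) to Dg (-0.41). Excitation-contraction coupling held 5 higher and 2 that did not pass, from jp (0.80) to SERCA, the calcium pump of the sarcoplasmic reticulum (-0.08, adjusted p = 0.115 by edgeR). Transcription, splicing and chaperone genes held 5 higher and 5 lower, from stv (starvin, 1.58), a co-chaperone of the Z-disc, to bru1 (-0.68). Energy supply held 2 higher and 2 lower, from Gpo1 (0.63), a mitochondrial glycerol-phosphate oxidase, to sesB (-0.68), the ADP/ATP carrier. Cytoplasmic actin and non-muscle myosin held 1 higher, sqh (0.72), and 2 lower, with tsr (cofilin, -0.49) lowest.

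**Figure D5:**
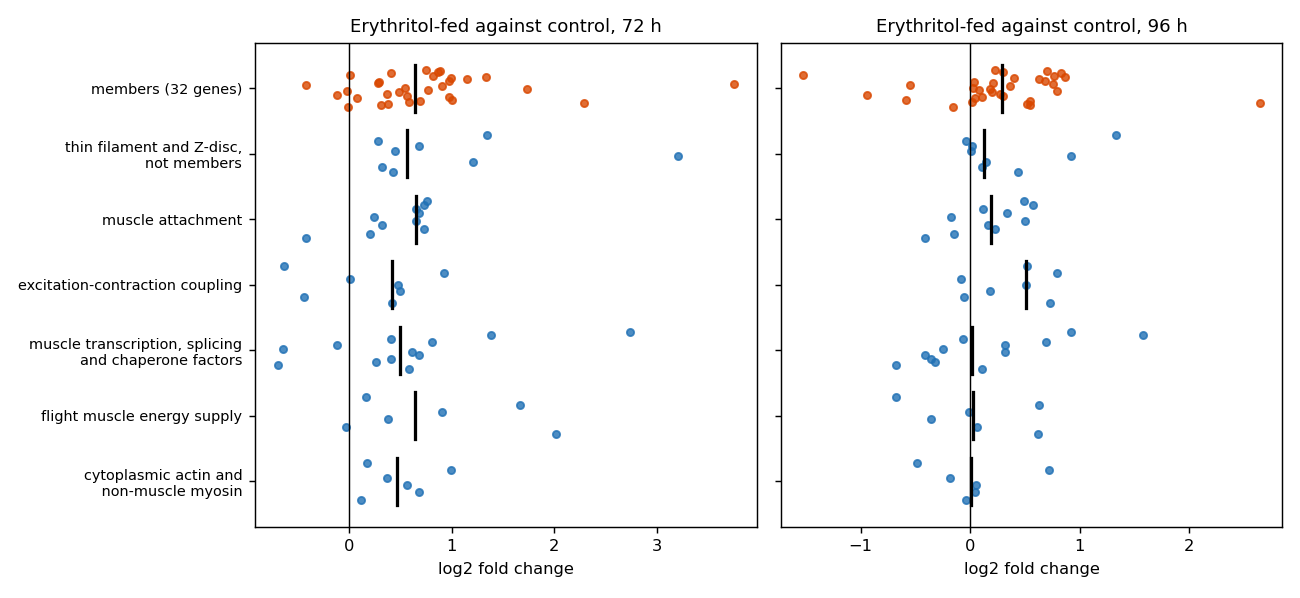
Log2 fold change of erythritol-fed against control flies at 72 h and 96 h for the genes of each list, with a dot for each gene, a black line for the median of the list and the 32 sarcomere genes in red. At 72 h the medians of the lists lie above 0, and at 96 h they lie closer to 0 except for excitation-contraction coupling, whose median went from 0.41 to 0.51.

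Markers of other tissues moved with diet and time in the same libraries. Summed levels of 11 eggshell genes lay between 3903 and 4031 CPM in CK72h and between 558.7 and 602.5 CPM in T72h, and between 7309 and 8294 CPM in CK96h and between 4.59 and 4.91 CPM in T96h, with 10 of the 11 lower at 72 h and all 11 at 96 h. All 5 accessory gland markers were lower at both times, at 1457 to 1476 CPM in CK72h, 65.4 to 72.7 CPM in T72h, 543.1 to 563 CPM in CK96h and 70.1 to 72.2 CPM in T96h. All 5 hemocyte markers were higher at 72 h, at 182.1 to 187.4 CPM in CK72h and 555.3 to 588.4 CPM in T72h. At 96 h, 2 of the 5 were higher and 2 lower, at 457.4 to 474.7 CPM in CK96h and 573.1 to 580.5 CPM in T96h. All 11 testis markers were lower at 72 h (2465 to 2475 CPM in CK72h, 1258 to 1360 CPM in T72h) and higher at 96 h (969.8 to 1006 CPM in CK96h, 2539 to 2551 CPM in T96h). Of 6 ovary germline markers 5 were lower at both times, 3 of 3 fat body markers were lower at both, 4 of 5 neuron markers were lower at 72 h and 2 of 5 higher at 96 h, and of 5 gut markers 2 were higher and 2 lower at each time. Eggshell, accessory gland and testis transcripts were thus detected in the pools of each group, those of the eggshell only at a low level in T96h. The part of these shifts in the levels of the sarcomere genes was not tested.

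A single library and the scaling bear on the counts of genes. Without T72h replicate 3, the library with the highest mitochondrial share, the count at 96 h became 27 higher and 4 lower sarcomere genes, and the median over all genes at 96 h moved by 0.111. Mhc, Mlc1, TpnC47D, Tm1, Prm and Actn then passed as higher at 96 h, and TpnC41C (0.32), Strn-Mlck (0.29) and Mp20 (0.31) had larger values. In control flies over time, without it, the values of Mlc1 (-0.28) and Tm1 (-0.24) were larger falls. Mlc1 in that comparison did not pass without CK72h replicate 1 (-0.13) or CK96h replicate 1 (-0.13) or 2 (-0.16). At 72 h, of the genes that passed, 92.9% were higher, and 82.1% were with library totals, which moved the median over all genes by -0.257. Another scaling moves all genes of a comparison by nearly the same amount. The sarcomere genes' median relative to the median over all genes could therefore hardly change with scaling. Across the other scalings, filters and models it lay between 0.675 and 0.707 at 72 h and between 0.278 and 0.304 at 96 h. Over time it lay between -0.579 and -0.5 in control and between -0.932 and -0.912 in erythritol-fed flies.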

How the data were processed

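The authors enriched polyadenylated RNA of pooled whole flies, trimmed reads, aligned them with HISAT2 to FlyBase release 6 and deposited whole-number counts per gene for 12 libraries. CASAVA 1.8 is named in the submitters' processing notes. How reads were counted, and whether by strand, was not given in the sources used here. Of the 17707 genes in the table, 17558 carry FlyBase identifiers and 149 are gene models of the authors (at most 0.0237% of a library's counts). Names, positions and exon lengths came from the Ensembl release 115 annotation of dm6, the same assembly.

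Counts were fitted with edgeR 4.0.16 (limma 3.58.1, R 4.3.3): filter on the groups, 13179 genes kept, TMM factors, 1 quasi-likelihood model over the 4 groups with 8 residual degrees of freedom, and Benjamini-Hochberg adjustment over all genes tested. CPM used TMM-scaled library sizes. The test was checked on simulated counts. Depth was even, at 19855575 to 23327826 counts, and counting error weighs most on members with few counts, such as fln, Lasp, TpnC25D and TpnC47D. With 3 against 3 libraries an exact permutation test could not give a p below 0.1, so none is reported.

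Alternatives were RLE, upper-quartile and total-count scaling, TMM without mitochondrial genome transcripts, DESeq2 1.42.0, no low-count filter, the compared groups alone, each library left out, and a replicate block. All 32 members are named, and of each pathway list the genes with the largest and smallest change at each time. The members and lists were chosen with earlier results of these data known, and no set test was run. Pathway genes wupA, Ca-beta, Stac, unc-45 and zip and markers vas, para and FASN1 were not used here, and SclA was listed at 0 counts. No 2 libraries agreed within sampling noise.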

Additional observations from a re-analysis of the deposited data

Results flagged for a closer look

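The effect of erythritol differed between 72 h and 96 h for 25 of the 32 sarcomere genes, by edgeR's test of the difference itself (effect at 96 h minus effect at 72 h, log2): 5 passed as higher, where 31.1% of all genes did, and 20 as lower, where 47.8% did. Taken in both directions together, the number that passed is near the share over all genes. By direction, with TMM factors more of the 32 passed as lower and fewer as higher than among all genes. The counts depended on scaling, at 15 lower and 8 higher with upper-quartile factors and 14 lower and 9 higher with library totals. Shares over all genes under those scalings were not counted. The effect was larger at 96 h for Act88F (0.355), Act79B (0.236), Act87E (0.144), sls (0.423) and Msp300 (0.815). The pass of Act87E was lost with RLE size factors (0.11) and with DESeq2 (0.10). In thick filament genes it was smaller or more negative at 96 h, by -0.866 for Mlc1, -0.261 for Mlc2, -0.685 for Prm, -1.53 for fln and -1.58 for Mf. In troponin and tropomyosin genes the difference was -2.99 for TpnC4, -0.259 for TpnC47D, -0.287 for TpnC73F, -0.528 for up, -0.509 for Tm1 and -0.538 for Tm2. In genes of giant and M-line proteins it was -0.523 for Unc-89 and -1.55 for Strn-Mlck. In Z-disc and thin filament end genes it was -0.465 for Zasp66, -0.594 for Zasp52, -0.568 for Actn, -0.561 for tmod, -0.181 for tn, -0.285 for Mp20 and -0.826 for Mlp60A. The median over all genes tested was -0.22 in the same contrast.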

How the results depend on the processing

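Of 3168 values of single sarcomere genes under other settings, 3051 kept their direction and side of the threshold, 37 gained and 40 lost it, and 40 changed sign. The total pools settings that differ in how much they move. TMM without mitochondrial genome transcripts kept all 160 of its values, whereas upper-quartile factors kept 138 and library totals 135. What caused each change was not tested, except that leaving out a library leaves fewer values.

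At 72 h, 2 genes were lower, and the number was 1 with RLE, DESeq2 or the compared groups alone, 4 with upper-quartile factors, 5 with library totals, and 1 to 2 without single libraries. Act57B turned to 0.0185 (RLE), 0.0246 (DESeq2) and 0.0277 (compared groups), and Msp300 to 0.0131, 0.0191 and 0.0228. Mhc turned to -0.0572 with upper-quartile factors and -0.18 with totals, and fln to -0.12 and -0.25. Without single libraries Act57B ran from -0.0633 to 0.11 and Msp300 from -0.0274 to 0.0433, both highest without T72h replicate 3, and fln from -0.29 (without CK72h replicate 2) to 0.22.

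At 96 h the number called lower was 0 with upper-quartile factors and totals, and 0 to 1 without single libraries, where fln still passed at its adjusted p. Actn ran from -0.0248 (without T96h replicate 2) to 0.12 (without T72h replicate 3).

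For the difference between times, 8 genes were higher and 15 lower with upper-quartile factors, and 9 were higher and 14 lower with totals. With upper-quartile factors, Act57B was 0.0623, Mhc 0.18, TpnC41C 0.13, TpnC25D 0.0733, bt 0.15, tn 0.0189, Mlp84B 0.11 and Lasp 0.0522. With totals, the median was 0.0283, Act57B 0.175, Mhc 0.29, Mlc2 0.0539, TpnC41C 0.25, TpnC25D 0.19, TpnC47D 0.0535, TpnC73F 0.0280, bt 0.26, tn 0.13, Mp20 0.0287, Mlp84B 0.23 and Lasp 0.17. Without single libraries Mhc ran from -0.0448 to 0.0180, TpnC41C from -0.15 to 0.0303, bt from -0.0896 to 0.0431 and Lasp from -0.36 to 0.20, each highest without T72h replicate 3.

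In erythritol-fed flies over time, the number of higher genes was 0 with RLE, DESeq2 and the compared groups alone, and 0 to 1 without single libraries. The number called lower was 1 with RLE and DESeq2 and 0 to 1 without single libraries, the gene being Act79B. Same-numbered replicates deviated together with r from -0.043 to 0.076, so the numbers do not pair the libraries. With a replicate block the numbers of higher and lower genes were 26 and 2 at 72 h, 21 and 5 at 96 h, and 5 and 21 in the difference. Over time they were 3 and 28 in control and 1 and 31 in erythritol-fed flies.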
